A study of Arabidopsis thaliana with 24 samples.

Results

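The transcriptome of Arabidopsis thaliana roots that had been moved onto isoxaben, an inhibitor of cellulose synthesis, was compared between seedlings raised on 60 mM and on 6 mM KNO3. The comparison was defined by its labels, though with earlier results of these data known. It holds 6 of the 24 root libraries, 3 at each KNO3 supply. It was described across 20546 expressed genes of the 32833 in the count table. Seedlings of the accession Col-0 grew on polyester mesh on KNO3-adjusted Murashige and Skoog agar, were moved on day 5 to the same KNO3 concentration with 2.5 nM isoxaben, and had their roots frozen on day 6. A mock shift at 6 and at 60 mM KNO3, moved in the same way to plates without isoxaben, and a long-term treatment at both concentrations, in which seedlings grew on 2.5 nM isoxaben until day 6 with no move, served for comparison, again with 3 libraries a group. KNO3 was constant throughout growth, so the comparison is of 2 supplies and not of a change in supply, and nitrate, potassium and ionic strength differed together. The labels do not say that replicates came from separate plates or cultures, so p-values measure the spread between these samples, which may be technical.

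Nitrate is taken up by root transporters of the NRT2 and NRT1 (NPF) families, is reduced and built into glutamine and asparagine, and is also a signal that sets the activity of many root genes. Isoxaben stops the cellulose synthase complexes that make the primary wall of growing cells. Plant cells whose walls are weakened in this way are known to make jasmonate and ethylene, to deposit lignin and to switch on touch and defence genes, and their response is known to depend on the osmotic conditions of the medium.

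The 6 libraries held 19490593 to 20519913 counts each. The root genes SCR (54.2 to 71.8 CPM over the 6 libraries), SHR (44.2 to 52.2) and PYK10 (5700 to 7310) were expressed in each, where CPM is the count scaled to library size with trimmed-mean factors. Leaf-type photosynthesis genes were present: the 20 listed genes summed to 428 to 437 CPM in the 6 mM libraries and to 495, 700 and 747 CPM in the 60 mM libraries, whereas the 6 mock shift libraries spanned 396 to 865 CPM. None of the 20 passed the edgeR test, with 0 at an unadjusted p under 0.05 and 0 called by DESeq2, the median log2 difference of the list was 0.48, and 1 of the 20, RBCS2B, was at 0 in a library. The part of shoot RNA in the results below was not tested.

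With isoxaben, 1424 genes rose and 1460 fell at 60 mM, that is 2884 genes or 14.0% of those tested (6.93% higher and 7.11% lower; edgeR's quasi-likelihood test, Benjamini-Hochberg adjusted p under 0.05). Most of these differences were modest: 597 reached a log2 fold change of 1 in either direction, of which 349 were higher, and the median of all genes tested was 0.0034. Without the 60 mM replicate 2 the count that fell was 965. In bulk roots, fewer cells of a type and less RNA per cell cannot be told apart. The same contrast in the mock shift called 1685 genes (8.20%), 682 higher (3.32%) and 1003 lower (4.88%). That count was 1031 without the mock 6 mM replicate 3, with 405 higher and 626 lower, and the lower count was 666 without the mock 60 mM replicate 1.

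The 12 strongest rises under isoxaben included nitrate and asparagine genes, 2 class III peroxidases, a dirigent protein and a receptor-like protein. PRX52, a secreted peroxidase that acts in lignin formation, stood at 3.88, 2.29 and 6.14 CPM at 6 mM and at 146, 123 and 142 CPM at 60 mM. The 60 mM libraries were far above all others in the shift experiment, since the 6 mock libraries ranged from 0.245 to 7.40 CPM. The log2 fold change was 5.07 ± 0.53 (SE; adjusted p = 4.16e-06), against 0.03 ± 0.78 in the mock shift (adjusted p = 0.991). The difference between these effects was called (5.04, adjusted p = 0.0068), but not without the mock 6 mM replicate 3 (adjusted p = 0.107) or with only the compared libraries fitted (adjusted p = 0.085). A second peroxidase gene, AT1G49570, rose from 3.29 ± 0.40 to 58.4 ± 5.0 CPM (SD, n = 3; log2 4.15, adjusted p = 1.37e-08) and in the mock shift from 6.10 ± 2.33 to 25.1 ± 8.2 CPM (log2 2.04, adjusted p = 7.17e-05), with the difference also called (adjusted p = 0.00491). The mock call was lost with only the compared libraries fitted (adjusted p = 0.0553).

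DIR5, which encodes a dirigent protein of the family that guides the coupling of phenolic radicals, rose from 1.99, 0.748 and 2.43 CPM to 26.9, 18.7 and 15.8 CPM (log2 3.57, adjusted p = 2.86e-06). In the mock shift it stayed between 0 and 0.247 CPM in all 6 libraries, so no effect could be resolved there. RLP38, a receptor-like protein, rose from 0.539 ± 0.208 to 7.56 ± 1.07 CPM (log2 3.80, adjusted p = 1.45e-07). Its difference from mock was not called by edgeR with all libraries, but was by DESeq2 (log2 3.64, adjusted p = 0.000593). GAD4, a glutamate decarboxylase that makes gamma-aminobutyrate, rose from 0.438 ± 0.084 to 12.0 ± 1.2 CPM (log2 4.76, adjusted p = 1.2e-06), although another gene overlaps it on the opposite strand. Its difference from mock was called by edgeR with all libraries. That call was lost without any 1 of the isoxaben shift libraries (adjusted p = 0.0526 to 0.0964). The uncharacterized gene AT1G65500 rose from 0.570 ± 0.196 to 8.67 ± 1.76 CPM (log2 3.91, adjusted p = 9.16e-11). BGLU27, a beta-glucosidase, rose to 5.04 ± 0.72 CPM, PP2-B13, a phloem protein 2 gene, to a mean of 5.16 CPM and ENDO2, an endonuclease, to 5.76 ± 0.55 CPM. These 3 were close to the detection floor at 6 mM (0.201, 0.167 and 0.320 CPM, against a floor of 3 counts, or at most 0.155 CPM), so the size of their rise is uncertain, and PP2-B13 and ENDO2 also overlap genes on the opposite strand. A rise of BGLU27 in mock was not called by edgeR with all libraries. It was called by DESeq2 (adjusted p = 0.0268) and in edgeR without mock 60 mM replicate 2 (adjusted p = 0.0251).

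The 12 strongest falls included lipid-transfer, PLAC8-domain, auxin transport and indole metabolism genes. PIN5, an auxin carrier of the endoplasmic reticulum, stood at 11.0, 13.0 and 10.1 CPM at 6 mM and at 3.29, 2.55 and 2.05 CPM at 60 mM. The groups were well apart, while the mock libraries lay between 8.09 and 12.2 CPM at both supplies. The log2 fold change was -2.1 ± 0.14 (adjusted p = 4.44e-11) under isoxaben and -0.31 ± 0.12 (adjusted p = 0.121) in mock, a difference of -1.80 (adjusted p = 1.44e-06). The peroxidase gene AT5G24070 fell from 15.4 ± 0.9 to 4.03 ± 0.15 CPM (log2 -1.93, adjusted p = 3.35e-13) and less in mock, from 22.7 ± 1.4 to 17.1 ± 1.2 CPM (log2 -0.41, adjusted p = 0.00087). The difference of -1.52 had an adjusted p of 5.17e-08.

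The lipid-transfer protein gene AT5G46900 read 168, 188 and 193 CPM at 6 mM and 54.8, 18.4 and 21.8 CPM at 60 mM (log2 -2.53, adjusted p = 2.41e-05), with 21.1% of its 50-base exon windows recurring elsewhere in the genome, so reads may be shared with a relative. A second one, AT4G22460, which overlaps a gene on the opposite strand, fell from 40.7 ± 5.1 to 8.61 ± 2.77 CPM (log2 -2.24, adjusted p = 4.93e-08) against a log2 fold change of -0.37 in mock (adjusted p = 0.184), and the difference was called (-1.87, adjusted p = 0.000106). ATCSLB05, a cellulose synthase-like gene, fell from 16.9 ± 2.6 to 4.18 ± 0.51 CPM (log2 -2.01, adjusted p = 1.78e-07), and the mock log2 fold change was -0.35 (adjusted p = 0.207, difference -1.66 with adjusted p = 0.00033). Of the 2 PLAC8 genes among the 12, AT3G18450 fell by similar estimates in both treatments (log2 -2.28 and -1.70, adjusted p for the difference = 0.392). AT1G49030 fell more with isoxaben (log2 -1.99 against -0.74, adjusted p for the difference = 0.0024).

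The other 5 of the 12 falls were also called in the mock shift, AT1G26390 not without mock 6 mM replicate 2 or 3 or mock 60 mM replicate 1 or 3. AT4G01390, a TRAF-like gene that overlaps a gene on the opposite strand, fell from 6.37 ± 1.44 to 0.483 ± 0.136 CPM. In mock it read 4.86, 6.06 and 4.94 CPM at 6 mM and 0.0985, 0 and 0 CPM at 60 mM, under the floor, so the size of that fall is not given. A difference between treatments was called (adjusted p = 0.0308), but not without isoxaben 60 mM replicate 2 or 3, mock 6 mM replicate 2 or mock 60 mM replicate 2 or 3 (adjusted p = 0.0503 to 0.129). GLP9, a germin-like protein, fell from 23.9 ± 2.6 to 5.31 ± 1.77 CPM with isoxaben and from 22.2 ± 6.8 to 4.57 ± 0.27 CPM in mock. MSRB6, a methionine sulfoxide reductase, fell from 12.3 ± 1.1 to 2.68 ± 0.97 CPM. CYP71A12, a P450 of indole metabolism, fell by 2.04 on the log2 scale with isoxaben and by 2.48 in mock, where the call was lost with only the compared libraries fitted (adjusted p = 0.0939), and AT1G26390, a berberine-bridge-type oxidase gene, by 1.95 and 1.63.

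**Figure D1:**
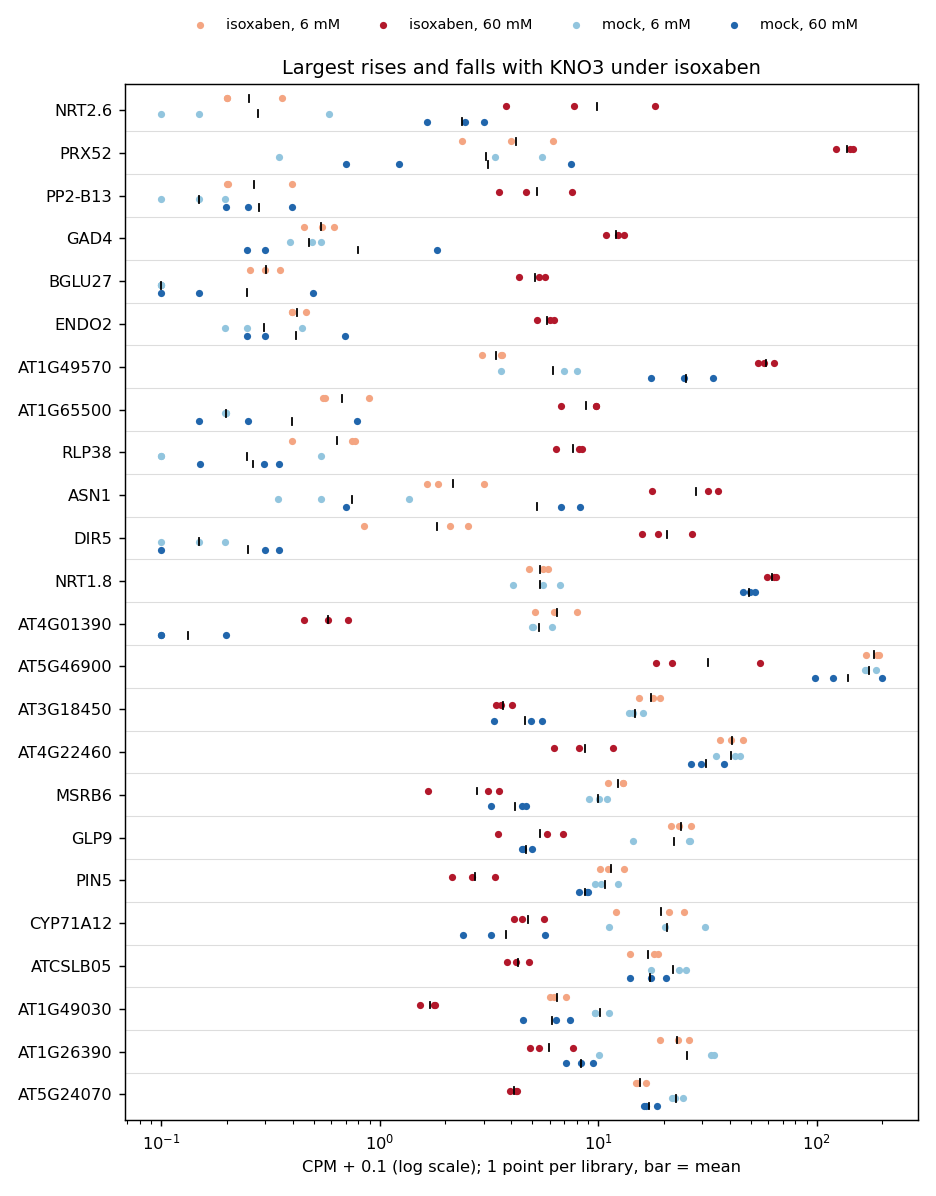
CPM plus 0.1 on a log axis for the 12 largest rises (top) and the 12 largest falls (bottom), with 1 point per library, a bar at each group mean and colours for the 4 shift groups. The 60 mM isoxaben points are apart from the 6 mM isoxaben points for each of the 24 genes by the rule that chose them, and for NRT1.8, GLP9 and CYP71A12 the mock libraries show a like separation.

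Of 20 tested nitrate transport genes, 5 rose and 5 fell under isoxaben (6 and 1 in mock), and 1 difference between treatments was called. These are 25% and 25% of the list under isoxaben and 30% and 5% in mock, beside 6.93% and 7.11% of all genes tested under isoxaben and 3.32% and 4.88% in mock. The median log2 fold change was 0.08. The falling count was 2 without the 60 mM replicate 2 and 3 without the 60 mM replicate 3. NRT1.8, a transporter that takes nitrate back out of the xylem sap, read 4.72, 5.49 and 5.78 CPM at 6 mM and 64.9, 59.1 and 63.5 CPM at 60 mM. The mock libraries read 3.97, 5.47 and 6.58 CPM and 45.9, 49.5 and 52.2 CPM. The groups did not overlap in either treatment, and the log2 fold changes were 3.55 ± 0.25 (adjusted p = 1.76e-08) and 3.20 ± 0.25 (adjusted p = 2.75e-07). NRT1.8 overlaps a gene on the opposite strand. NRT2.6, a high-affinity transporter gene, read 0.0994, 0.0998 and 0.258 CPM at 6 mM, at or near the floor, and 3.69, 18.1 and 7.63 CPM at 60 mM (log2 5.96 ± 0.91, adjusted p = 0.000186). Its call was lost when only the 6 libraries were fitted (adjusted p = 0.0517). A rise in mock was not called by edgeR with all libraries. It was called by DESeq2 (log2 3.67, adjusted p = 0.000403) and in edgeR with only the compared libraries fitted (adjusted p = 0.00833). It was also called in edgeR with a replicate block, library-size scaling or a stricter filter (adjusted p = 0.00959, 0.0462 and 0.0494).

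NRT2.4, a high-affinity transporter induced by nitrogen starvation, fell from 3.50 ± 0.82 to 0.732 ± 0.27 CPM (log2 -2.25, adjusted p = 3.88e-06) and had a log2 fold change of -0.92 in mock (adjusted p = 0.0259), a call lost without mock 6 mM replicate 1 or 2 or mock 60 mM replicate 1 or 2. The anion channel genes SLAH2 and SLAH3 rose with isoxaben (log2 0.94 and 0.68) and in mock (0.62 and 0.74). Among 27 nitrate response regulators 4 rose and 5 fell (14.8% and 18.5%, beside 6.93% and 7.11% of all genes). The median was -0.02. The rising count was 2 without the 60 mM replicate 2, and the falling count was 3 without either replicate 1. CIPK23, a kinase that phosphorylates the nitrate sensor NRT1.1, fell from 117 to 88.0 CPM (log2 -0.40, adjusted p = 2.89e-05). HRS1, a transcription factor that represses nitrogen starvation genes, fell from 51.3 to 31.0 CPM (log2 -0.73, adjusted p = 6.83e-05). The glutaredoxin gene AT1G06830 fell from 4.77, 3.34 and 3.25 CPM to 0.997, 0.962 and 1.05 CPM (log2 -1.91, adjusted p = 3.06e-06). All 3 fell in mock as well (log2 -0.36, -0.64 and -1.49).

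Of 23 assimilation genes 2 rose and 2 fell (8.7% each, near the shares of all genes), with a median of 0.06, and 1 in each direction was called in every fit that left out 1 library. None of the 4 nitrate and nitrite reduction genes was called by edgeR or by DESeq2, and 1 had an unadjusted p under 0.05. ASN1, a glutamine-dependent asparagine synthetase, rose from 1.54, 1.75 and 2.89 CPM to 17.5, 31.6 and 35.2 CPM (log2 3.77 ± 0.70, adjusted p = 0.00126). The mock estimate of 2.97 ± 1.05 did not pass in edgeR with all libraries (adjusted p = 0.104). It was called by DESeq2 (log2 2.98, adjusted p = 0.0121) and in edgeR without mock 60 mM replicate 2 (log2 3.49, adjusted p = 0.0316). The groups did not overlap under isoxaben, whereas the mock 60 mM libraries ran from 0.600 to 8.12 CPM, and ASN1 overlaps a gene on the opposite strand. GDH1, a glutamate dehydrogenase, which also overlaps one, fell from 36.4 to 25.3 CPM with isoxaben (log2 -0.53) and from 36.3 to 24.6 CPM in mock (log2 -0.56).

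Of 14 sulfate response genes 9 were higher (64.3%, beside 6.93% of all genes) and none lower under isoxaben, and 7 were higher in mock (50%, beside 3.32%). Its median log2 fold change was 0.50 under isoxaben and 0.47 in mock, and no difference between treatments was called. The sulfate uptake carrier SULTR1;2 read 149, 147 and 170 CPM at 6 mM and 286, 257 and 256 CPM at 60 mM (log2 0.78 ± 0.16, adjusted p = 0.00204). LSU2, a gene induced by sulfur shortage, rose from 3.53 to 5.83 CPM (log2 0.72). The APS reductases APR2 (log2 0.50) and APR3 (0.37), which reduce activated sulfate, rose as well, and both overlap genes on the opposite strand.

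Of 21 potassium transport genes 4 rose and 1 fell (19% and 4.76%, beside 6.93% and 7.11% of all genes). The median was -0.00. The rising count dropped to 1 without the 6 mM replicate 1 and to 2 without 6 mM replicate 2 or any of the 60 mM replicates. CHX17, a cation/proton exchanger known to be induced by low potassium, fell from 11.9, 14.4 and 12.6 CPM to 4.24, 3.51 and 5.82 CPM (log2 -1.51 ± 0.26, adjusted p = 0.000423), and in mock from 19.0 to 5.17 CPM (log2 -1.88). HKT1, a sodium transporter of the xylem parenchyma, rose from 1.64 to 3.61 CPM (log2 1.13) and in mock from 1.82 to 4.24 CPM (log2 1.22). Of 28 phosphate starvation genes 7 rose and 2 fell (25% and 7.14%, beside 6.93% and 7.11% of all genes). The share that fell is thus near that of all genes, and the median was 0.07. The rising count was 4 without 6 mM replicate 2, 60 mM replicate 1 or 60 mM replicate 2. In every fit that left out 1 library, 2 of the 7 rose. PHO2, an enzyme that marks phosphate exporters for degradation, fell from 398 to 309 CPM (log2 -0.37), and the exporter PHO1 rose from 338 to 405 CPM (log2 0.26). Of 21 iron deficiency genes 1 fell (4.76%, under the share of all genes) and none rose, with a median of -0.11, and of 5 ammonium transport genes 1 fell, which no longer held without 6 mM replicate 2 or 3 or 60 mM replicate 2 or 3. Without 6 mM replicate 3 an ammonium transport gene was called higher.

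Of 30 osmotic and abscisic acid genes 4 rose and 3 fell (13.3% and 10%), with a median of 0.03. The share that fell is near the 7.11% of all genes, and the falling count was 1 without 6 mM replicate 3. KIN1, a cold- and drought-induced protein gene, rose from 67.5 ± 1.5 to 164 ± 20 CPM (log2 1.28, adjusted p = 7.08e-06), and P5CS1, which makes proline and overlaps a gene on the opposite strand, from 37.0 to 50.7 CPM (log2 0.45). Both also rose in mock (log2 1.36 and 0.73). Of 19 aquaporin genes, which encode water channels, 9 fell, 2 rose and 8 were not called under isoxaben. These are 47.4% lower and 10.5% higher, beside 7.11% and 6.93% of all genes, with a median of -0.28. In mock 2 were lower and 2 higher (10.5% each, beside 4.88% and 3.32%). The difference from mock was called lower for 2 of the 19 and not called for 17. The falling count was 4 to 5 without 6 mM replicate 2 or 3 or 60 mM replicate 2 or 3. In every fit that left out 1 library, 3 of the 9 fell. The rising count was 1 without 6 mM replicate 1 or 2 and 0 without 60 mM replicate 2. PIP2;7 of the plasma membrane fell from 557, 604 and 601 CPM to 417, 338 and 338 CPM (log2 -0.69 ± 0.08, adjusted p = 3.61e-07). In mock its log2 fold change was -0.16 (adjusted p = 0.243), and the difference of -0.53 was called (adjusted p = 0.00399). PIP2;1 (log2 -0.37) and the tonoplast channel TIP2;3 (log2 -1.06, from 38.7 to 18.6 CPM) also fell.

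**Figure D2:**
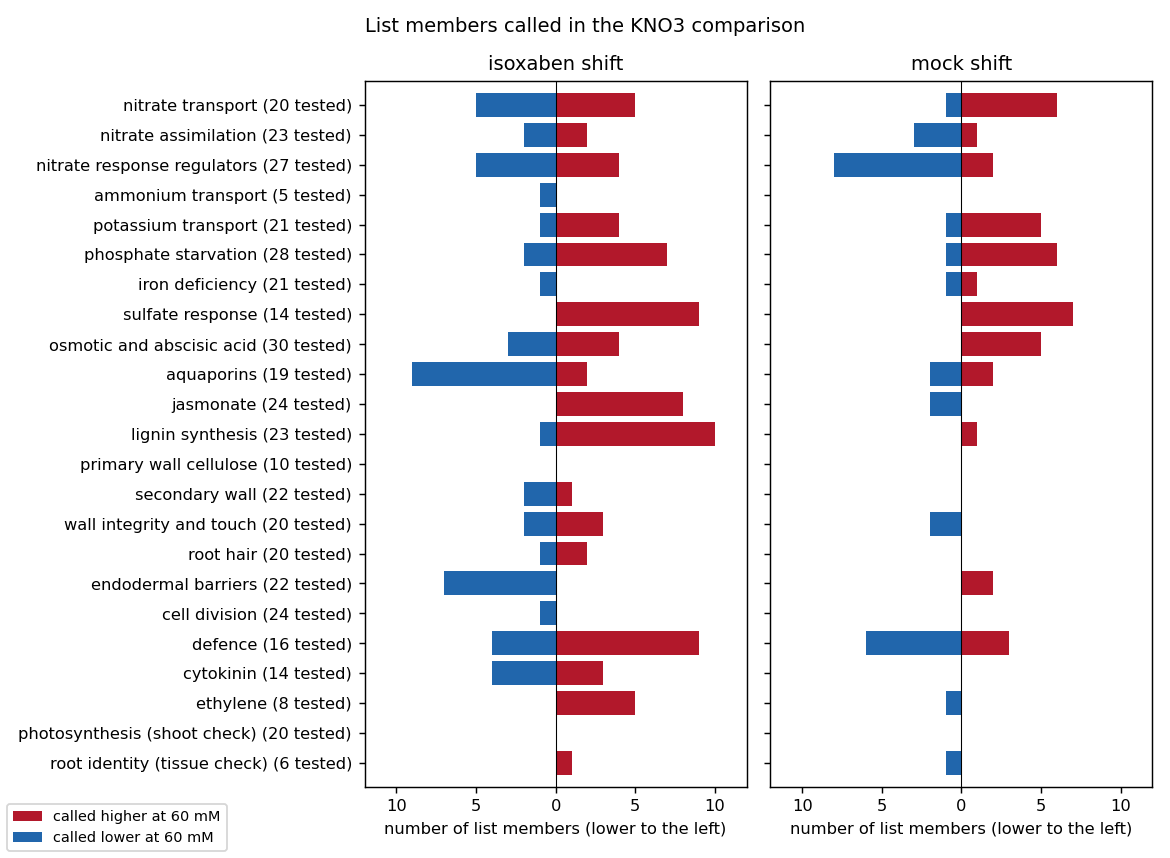
Number of members called higher (red, to the right) or lower (blue, to the left) at 60 mM KNO3 in each of the 23 gene lists, for the isoxaben shift and the mock shift. Lignin synthesis (10 higher), defence and sulfate response (9 each) and jasmonate (8) have the most members higher under isoxaben, and aquaporins (9) and endodermal barriers (7) the most lower.

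Of 8 ethylene genes 5 rose and none fell under isoxaben (62.5% higher, beside 6.93% of all genes), with a median of 0.47. In mock none rose and 1 fell (12.5%, beside 4.88% of all genes). The difference from mock was called higher for 1 of the 8 and not called for 7. ACS11, an isoform of the enzyme that makes the ethylene precursor, read 4.87, 4.09 and 6.35 CPM at 6 mM and 23.4, 23.5 and 24.1 CPM at 60 mM, against 1.00 to 2.06 CPM over the mock libraries. The 60 mM isoxaben libraries were thus above the other 9. The log2 fold change was 2.21 ± 0.15 (adjusted p = 3.67e-11), and the difference from mock was 2.67 (adjusted p = 2.83e-06). ACS2 (log2 1.09) and ACS6 (0.49), isoforms of the same enzyme, rose as well, but their differences from mock were not called.

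Of 24 jasmonate genes 8 rose (33.3%, beside 6.93% of all genes) and none fell under isoxaben, with a median of 0.19. The count was 4 without 6 mM replicate 1 or 60 mM replicate 1, and 2 of the 8 rose in every fit that left out 1 library. In mock 2 fell (8.33%, beside 4.88% of all genes) and none rose. The difference from mock was called higher for 4 of the 24 and not called for 20. LOX4, a lipoxygenase that starts jasmonate synthesis, rose from 0.447, 0.349 and 0.361 CPM to 2.74, 2.55 and 1.76 CPM (log2 2.59 ± 0.37, adjusted p = 1.46e-05). The mock libraries held 0.345 to 0.831 CPM, and the difference from mock was called (3.26, adjusted p = 0.0016). JAZ1, a repressor that jasmonate induces, rose from 61.7 to 75.4 CPM (log2 0.29) and fell in mock from 55.1 to 41.8 CPM (log2 -0.40), a difference of 0.69 (adjusted p = 0.000253). The rise under isoxaben was not called without 60 mM replicate 1 (adjusted p = 0.0793).

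Of 6 touch-inducible genes 2 rose and 4 were not called under isoxaben (median 0.27), and none was called in mock. The calmodulin-like TCH3 read 32.9, 24.9 and 34.4 CPM at 6 mM and 115, 135 and 139 CPM at 60 mM. In mock it read 2.81 to 3.89 CPM in all 6 libraries, so every isoxaben library was above every mock library. The KNO3 effect was 2.08 ± 0.12 (adjusted p = 8.06e-11) with isoxaben and 0.22 ± 0.22 (adjusted p = 0.64) in mock, a difference of 1.85 (adjusted p = 8.37e-05), and TCH3 overlaps 2 genes on the opposite strand. TCH4, a xyloglucan endotransglucosylase, rose from 2.73, 2.59 and 3.56 CPM to 13.1, 9.43 and 11.3 CPM (log2 1.93, adjusted p = 3.2e-09), against 1.08 to 1.62 CPM over the mock libraries (difference 1.9, adjusted p = 0.000206). Over the whole list of 20 wall integrity and touch genes 3 rose and 2 fell (15% and 10%). The shares of all genes were 6.93% and 7.11%, so the share that fell is near that of all genes. In mock none rose and 2 fell (10%, beside 4.88%). The median under isoxaben was 0.03, and 1 fell there in every fit that left out 1 library. That 1 was THE1, a receptor kinase that senses loss of cellulose, which fell from 59.5 to 46.4 CPM (log2 -0.36). The third riser was WAK1, a wall-associated kinase, at 0.0497 CPM in 1 library and 0 in the other two at 6 mM, and at 0.598, 0.529 and 1.91 CPM at 60 mM (adjusted p = 0.000182). Its 6 mM libraries lie under the floor of 3 counts, so no fold is given. None of the 10 primary wall cellulose genes, the targets of isoxaben among them, was called by edgeR in either treatment (median -0.00). Under isoxaben 0 had an unadjusted p under 0.05 and 0 were called by DESeq2.

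Of 23 lignin synthesis genes 10 rose and 1 fell under isoxaben (43.5% and 4.35%, beside 6.93% and 7.11% of all genes). The median was 0.20. In mock 1 rose (4.35%, beside 3.32% of all genes). The difference from mock was called higher for 2 of the 23, lower for 1 and not called for 20. The rising count was 6 without 6 mM replicate 1 or 60 mM replicate 1, and the fall was not called without 6 mM replicate 3 or 60 mM replicate 2 or 3, while 2 fell without 6 mM replicate 1. By role, 2 of 7 genes of phenylpropanoid entry, 5 of 9 of the monolignol branch and 3 of 7 of polymerisation and placement rose. PAL4, at the entry of the pathway, rose from 58.0 to 85.2 CPM (log2 0.56), CCOAOMT1, a methyltransferase, from 1350 to 1710 CPM (log2 0.34) and CCR2, a reductase with a gene opposite, from 39.9 to 56.0 CPM (log2 0.49). DIR6, a dirigent protein, rose from 86.3 to 118 CPM (log2 0.45), beside PRX52 and DIR5 above. DIR5 and DIR6 are counted in the list as dirigent genes, and a part of theirs in lignin itself was not tested. Of 22 secondary wall genes 1 rose and 2 fell (4.55% and 9.09%, near the shares of all genes, median 0.04), with 0 risen without either replicate 3 and 2 without 6 mM replicate 2 or 60 mM replicate 1. FLA12, a fasciclin-like protein of secondary walls, fell from 17.7 to 10.1 CPM (log2 -0.81).

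Of 16 defence genes 9 rose and 4 fell under isoxaben (56.2% and 25%, beside 6.93% and 7.11% of all genes). The median was 0.39, and the falling count was 2 without either replicate 3. In mock 3 rose and 6 fell (18.8% and 37.5%, beside 3.32% and 4.88%), with a median of -0.18. The difference from mock was called higher for 4 of the 16 and not called for 12. PAD3, the last enzyme of camalexin synthesis, rose from 18.8, 18.9 and 21.9 CPM to 62.6, 66.4 and 63.3 CPM (log2 1.69 ± 0.13, adjusted p = 4.3e-09) and in mock from 15.6 to 26.2 CPM (log2 0.75), with the difference of 0.94 called (adjusted p = 0.004). MYB51, a regulator of indole glucosinolate synthesis, rose from 7.70, 6.83 and 7.54 CPM to 15.7, 16.3 and 24.1 CPM (log2 1.35), while the mock libraries held 4.04 to 5.82 CPM (difference 1.64, adjusted p = 2.18e-05). FMO1 (log2 2.26) and ALD1 (1.87), which make the immune signal N-hydroxypipecolate, and ICS1 (0.63), which makes salicylate, rose too. CYP79B3, an enzyme that feeds indole glucosinolates and camalexin, went the other way in both treatments, from 259 to 102 CPM with isoxaben (log2 -1.34) and from 241 to 93.7 CPM in mock (log2 -1.36).

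Of 9 type-A cytokinin response regulators, which cytokinin induces, 3 rose, 1 fell and 5 were not called. Of 5 cytokinin synthesis and degradation genes 3 fell and 2 were not called, and the roles were not tested against each other. Over the whole list of 14, 3 rose and 4 fell (21.4% and 28.6%, beside 6.93% and 7.11% of all genes), and none was called in mock. The falling count was 2 without any 1 of the 6 mM replicates, and the median was -0.13. ARR15 rose from 0.489 to 1.93 CPM (log2 1.97, difference from mock 2.29 with adjusted p = 0.00277) and ARR3 from 17.7 to 26.0 CPM (log2 0.55, difference 0.75 with adjusted p = 0.00399). CKX4, a cytokinin-degrading oxidase, fell from 17.6 to 8.77 CPM (log2 -1.01, difference -0.92 with adjusted p = 0.00945), and IPT5, a cytokinin synthesis gene, from 12.4 to 8.48 CPM (log2 -0.55). Of 20 root hair genes 2 rose and 1 fell (10% and 5%, near the shares of all genes, median 0.14), and the fall was not called without replicate 1 or 2 of either supply. RSL4, a regulator of root hair growth, rose from 11.2 to 18.5 CPM (log2 0.72, difference from mock 0.85 with adjusted p = 0.00559) and was the 1 riser without 6 mM replicate 1 or 2 or 60 mM replicate 1 or 3.

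Of 9 genes of the Casparian strip, the lignin barrier that seals the endodermis, 6 fell under isoxaben, none rose and 3 were not called. Their median log2 fold change was -0.83. Of 13 suberin genes 1 fell (median 0.07), which is near the share of all genes. The whole list of 22 endodermal barrier genes had 31.8% lower, beside 7.11% of all genes. In mock it had 9.09% higher and 0% lower, beside 3.32% and 4.88%. CASP1, a scaffold protein of the strip, read 166, 190 and 201 CPM at 6 mM and 97.4, 66.6 and 84.7 CPM at 60 mM. The mock libraries read 147, 138 and 160 CPM and 161, 159 and 192 CPM, so the 60 mM isoxaben libraries were the lowest of the 12. The log2 fold change was -1.16 ± 0.15 (adjusted p = 1.49e-05) with isoxaben and 0.20 ± 0.14 (adjusted p = 0.484) in mock, a difference of -1.36 (adjusted p = 0.000544). CASP2 (log2 -0.83) and CASP4 (-0.92) fell likewise, with differences from mock of -1.08 and -1.48 (adjusted p = 0.00211 and 0.000206), and CASP4 rose in mock from 31.3 to 46.1 CPM (log2 0.56, adjusted p = 0.0166), a call lost without mock 6 mM replicate 2 or mock 60 mM replicate 2 or 3. ESB1, a dirigent protein of the strip, fell from 138 to 77.9 CPM (log2 -0.83, difference -1.07 with adjusted p = 0.00719). CASP1 and ESB1 overlap genes on the opposite strand. PER64, a peroxidase that also has a gene opposite, was called lower, but not without any of the 6 mM replicates or 60 mM replicate 2 or 3. SCR and SHR, which specify the endodermis, were not called. Among the 24 cell division genes 1 fell (4.17%, under the 7.11% of all genes, median -0.11). That fall was not called without 6 mM replicate 2 or 60 mM replicate 1 or 2.

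The 250 bases before the annotated start of 4 risen genes and 2 fallen genes are shown because these genes carried called differences from mock in every alternative and have no opposite-strand gene, and they were chosen after their values were seen. Capitals mark TTGAC, the core of the W-box that WRKY factors bind, and CGCGT, part of a motif of calmodulin-binding transcription activators, on either strand. The bases beside the marked stretches were not checked against the full motifs.
ACS11: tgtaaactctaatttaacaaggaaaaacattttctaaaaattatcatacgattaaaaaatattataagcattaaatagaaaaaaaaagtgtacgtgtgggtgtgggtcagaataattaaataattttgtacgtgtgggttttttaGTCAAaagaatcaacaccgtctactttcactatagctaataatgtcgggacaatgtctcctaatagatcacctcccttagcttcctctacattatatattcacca
LOX4: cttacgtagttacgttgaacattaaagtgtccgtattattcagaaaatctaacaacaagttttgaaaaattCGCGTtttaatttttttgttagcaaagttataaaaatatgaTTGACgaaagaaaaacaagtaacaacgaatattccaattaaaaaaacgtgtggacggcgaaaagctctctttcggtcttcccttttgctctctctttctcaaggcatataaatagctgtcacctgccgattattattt
TCH4: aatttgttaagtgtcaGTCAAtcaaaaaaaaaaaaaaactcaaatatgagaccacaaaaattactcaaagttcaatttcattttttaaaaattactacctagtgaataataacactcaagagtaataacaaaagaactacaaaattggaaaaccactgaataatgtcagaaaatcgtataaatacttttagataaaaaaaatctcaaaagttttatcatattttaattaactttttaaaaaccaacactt
MYB51: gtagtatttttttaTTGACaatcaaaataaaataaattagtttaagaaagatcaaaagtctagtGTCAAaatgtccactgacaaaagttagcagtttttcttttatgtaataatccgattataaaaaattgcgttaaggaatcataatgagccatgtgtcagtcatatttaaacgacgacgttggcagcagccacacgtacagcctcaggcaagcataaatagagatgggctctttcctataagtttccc
CASP2: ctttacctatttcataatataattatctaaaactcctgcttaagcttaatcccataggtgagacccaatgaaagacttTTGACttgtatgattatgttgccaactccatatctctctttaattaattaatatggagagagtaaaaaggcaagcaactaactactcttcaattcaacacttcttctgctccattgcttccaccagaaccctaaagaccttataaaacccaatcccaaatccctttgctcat
CASP4: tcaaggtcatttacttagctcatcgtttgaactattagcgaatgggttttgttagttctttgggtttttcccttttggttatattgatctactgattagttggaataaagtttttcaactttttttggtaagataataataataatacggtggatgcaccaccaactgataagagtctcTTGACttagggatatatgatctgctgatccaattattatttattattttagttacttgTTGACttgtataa
The sequences are RefSeq TAIR10.1, read in the direction of the gene: ACS11 at chr4:4886712-4886961 (plus strand), LOX4 at chr1:27308263-27308512 (plus), TCH4 at chr5:23308681-23308930 (minus), MYB51 at chr1:6389149-6389398 (plus), CASP2 at chr3:3637928-3638177 (plus) and CASP4 at chr5:1876884-1877133 (plus). TTGAC occurred once before ACS11, LOX4, TCH4 and CASP2 and 2 times before MYB51 and CASP4, in risen and fallen genes alike. Over the windows of 20489 tested genes 45.4% contained that W-box core. CGCGT occurred before LOX4 and was in 7.41% of all windows.

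**Figure D3:**
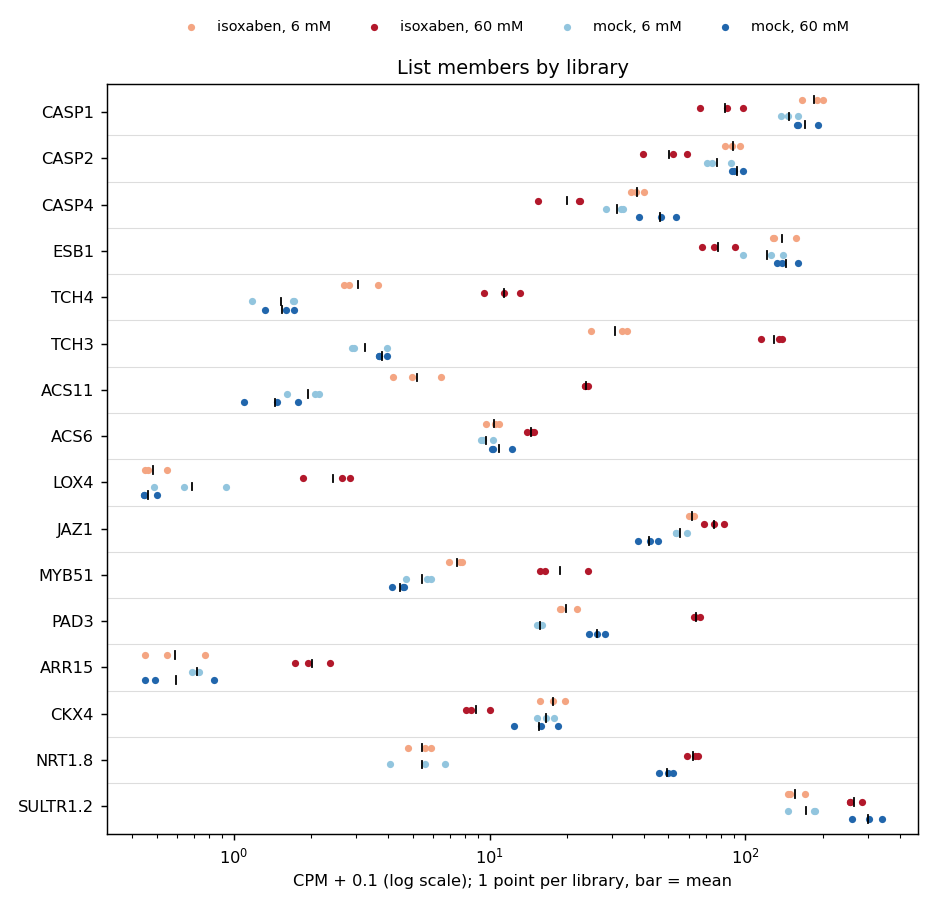
CPM plus 0.1 on a log axis for 16 list members in the 4 shift groups, with 1 point per library and a bar at each mean. CASP1, CASP2, CASP4 and ESB1 are lowest in the 60 mM isoxaben libraries, TCH3, TCH4, ACS11, LOX4, MYB51 and ARR15 are highest there, and NRT1.8 and SULTR1.2 separate by KNO3 in both treatments.

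Across all genes the KNO3 effect under isoxaben overlapped with that in the mock shift, which shares no library with it. In all, 830 genes were called in both, which is 28.8% of the isoxaben calls and 49.3% of the mock calls, and 769 of them had the same direction. Across the 20546 genes, which are not independent replicates, Pearson's r was 0.404 and Spearman's rho 0.34. The difference between the KNO3 effects was called for 720 genes (3.50%), 439 more positive with isoxaben (2.14%) and 281 more negative (1.37%). Of these 720, 440 were called under isoxaben only, 150 in mock only, 41 in both in the same direction, 61 in both in opposite directions and 28 in neither. The estimate was larger in size under isoxaben for 510 (70.8%). For most of the 2884 isoxaben calls, then, a difference from mock was not shown, since it was called for 542 of them (18.8%).

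The 4 smallest adjusted p upward came from 4 genes. The peroxidase gene AT5G64110 rose with isoxaben from 4.03, 2.79 and 3.30 CPM to 7.03, 5.92 and 7.30 CPM and fell in mock from 2.21, 2.00 and 2.18 CPM to 0.246, 0.250 and 0.296 CPM. The effects had opposite signs (log2 1.00 and -2.98), and their difference was 3.98 ± 0.34 (adjusted p = 5.67e-08). AT1G14960, a polyketide cyclase-like gene, also rose with isoxaben (45.9 to 97.4 CPM) and fell in mock (22.6 to 12.9 CPM). AT3G54150, a methyltransferase-like gene, rose from 1.23 to 11.1 CPM with isoxaben, while the mock means were 1.5 and 1.17 CPM. AT4G16670, annotated as an auxin canalization protein and overlapping genes on the opposite strand, rose from 8.84 to 23.7 CPM, with mock means of 9.2 and 8.96 CPM. Downward, besides AT5G24070 and PIN5, the wall enzyme gene XTH15, which also has a gene opposite, fell from 42.5 to 17.0 CPM with isoxaben (mock means 44.2 and 42.6 CPM). AT1G05660, a pectin lyase-like gene, fell from 23.3 to 13.6 CPM and rose in mock from 37.7 to 51.2 CPM.

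**Figure D4:**
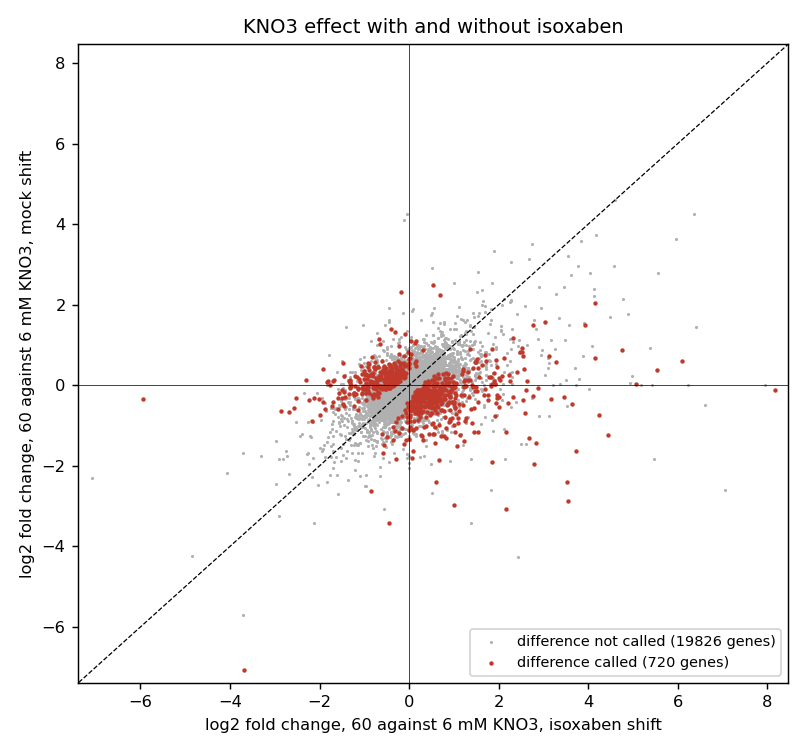
log2 fold change at 60 against 6 mM KNO3 under the isoxaben shift (horizontal) and in the mock shift (vertical) for the 20546 genes tested, with the 720 genes whose difference was called in red and the line of equal effects dashed. Red points lie mainly along the horizontal axis, where the isoxaben effect is the larger, and in the lower right and upper left, where the effects have opposite signs.

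Long-term isoxaben gave a wider KNO3 response, with 5264 genes called (25.6%). Of the shift calls 1671 (57.9%, or 31.7% of the long-term calls) were called there too, 1556 in the same direction, and across genes Pearson's r was 0.571 and Spearman's rho 0.371. The 2 treatments share no library, but they differ in length of exposure, in the mesh and in the move, which cannot be told apart. The difference between them was called for 1694 genes (8.24%), 924 more positive in the shift and 770 more negative. Scaled by library size alone it was 1795, with 1185 more positive and 610 more negative, and without the shift 60 mM replicate 2 the lower count was 486. Long-term isoxaben libraries at 60 mM differed beyond counting noise, with chi-square per degree of freedom of 21.7, 10.1 and 12.8 between pairs. For isoxaben shift pairs it was 4.35 to 12.8. The 20 photosynthesis genes summed to 183, 669 and 244 CPM in the long-term 60 mM isoxaben libraries. SP1L5, a SPIRAL1-like microtubule protein gene, read 9.44, 9.93 and 9.65 CPM at 6 mM and 10.9, 11.3 and 10.3 CPM at 60 mM after the shift, and in the long term 5.50, 5.44 and 5.59 CPM and 0.678, 0.445 and 0.634 CPM. It thus fell in the long term alone of the 2 (log2 -3.21, against 0.16 with adjusted p = 0.262), and the difference was 3.38 ± 0.19 (adjusted p = 7.03e-12). The carboxypeptidase gene scpl31 behaved likewise, from 89.7 to 21.7 CPM in the long term and with means of 118 and 108 CPM in the shift. AT1G28660, a GDSL lipase-type gene, fell from 7.2 to 2.95 CPM in the shift and rose from 11.6 to 23.1 CPM in the long term. For AT5G24070 the fall was larger in the shift (log2 -1.93 against -0.62).

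Several lists differed between these exposures in their counts. Calls were also more frequent over all 20546 genes in the long term. There 2569 rose and 2695 fell (25.6% called), against 1424 and 1460 in the shift (14.0% called). Endodermal barriers had 7 of 22 lower in the shift and 20 lower in the long term, where the median was -0.89. Iron deficiency genes had none higher in the shift and 11 of 21 higher in the long term (median 1.03), and secondary wall genes had 2 and 16 of 22 lower. CASP1 fell in both (log2 -1.16 and -0.92), and ACS11 rose by like estimates (2.21 and 2.23). PAD3 rose in the shift (1.69) and was not called in the long term (0.24, adjusted p = 0.19). These list counts were not tested against each other.

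**Figure D5:**
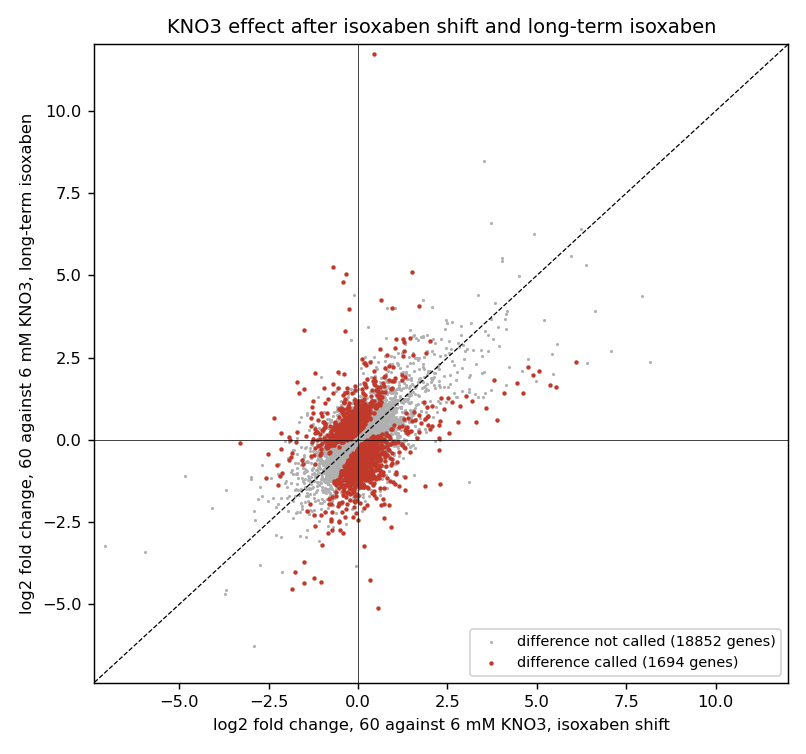
log2 fold change at 60 against 6 mM KNO3 after the isoxaben shift (horizontal) and under long-term isoxaben (vertical) for the 20546 genes tested, with the 1694 genes whose difference was called in red and the line of equal effects dashed. Many red points stand above or below the centre, where the long-term effect is the larger.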

How the data were processed

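PolyA-selected RNA of 24 root libraries was sequenced by the submitters, who deposited whole-number gene counts and, beside them, size-factor-normalised values. Reads were aligned with STAR 2.7.9a to TAIR10 and normalised with DESeq2 1.32.0, per the submitters' processing notes. The annotation, strand setting and handling of multi-mapping reads are not given in the sources used here. The normalised signal deposited by the authors was the counts divided by 1 factor per library (largest deviation 5e-13%) and was used for that check only. No value column was left without a sample.

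Counts were tested with edgeR 4.0.16 in R 4.3.3: genes passing filterByExpr (minimum count 10, total 15; 20546 genes, 99.96% of counts), TMM scaling, 24 libraries, 8 group means and the robust quasi-likelihood test with 16 residual degrees of freedom. Contrasts compared 60 with 6 mM KNO3 within a treatment, or such effects between treatments. P-values were Benjamini-Hochberg adjusted over all genes and called under 0.05. SE is the log2 fold change over the root of F. The common coefficient of biological variation was 7.66%. Replicate libraries of the isoxaben shift differed beyond counting noise (chi-square per degree of freedom 4.35 to 12.8).

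Named genes were the 12 largest rises and 12 largest falls among called genes with at least 5 CPM in a group and no overlap between groups, the 4 smallest adjusted p per direction for the difference from mock, and 2 for that from long-term isoxaben; list members were also named, mostly those whose isoxaben call held with each library left out, a choice made after their values were seen. The 23 lists (472 genes, 437 tested) and this comparison were chosen with earlier results of these data known. A further 5 entries were left out because their annotated product is uncharacterized or another one. Gene positions, overlaps and 50-base windows (named when over 20% recurred) come from RefSeq TAIR10.1, Python 3.11.15. Counting intervals and floors cover counting error only.

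Alternatives were DESeq2 1.42.0 size factors and Wald test, library-size scaling, no or a stricter filter (1 CPM in 3 libraries), the compared libraries alone, a replicate block, each library left out, and a log2 fold change of at least 1. The fitting steps were tested on simulated data. Some list members are counted but not reported here by name.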

Additional observations from a re-analysis of the deposited data

Results flagged for a closer look

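Each result below has a KNO3 effect that differed between 2 treatments by an edgeR test of the difference itself; values are log2 differences of the 60 against 6 mM effect, with n = 3 libraries in each group. Isoxaben minus mock shift was 3.98 for AT5G64110, 1.9 for AT1G14960, 1.46 for AT4G16670 and 3.53 for AT3G54150. It was -1.52 for AT5G24070, -1.80 for PIN5, -1.26 for XTH15 and -1.22 for AT1G05660. Isoxaben shift minus long-term isoxaben was 3.38 for SP1L5, 1.92 for scpl31, -2.28 for AT1G28660 and -1.32 for AT5G24070. These 12 values kept their direction and stayed called under each alternative that was run. AT4G16670 and XTH15 overlap genes on the opposite strand. Groups of 3 libraries were not screened for single outlying libraries.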

How the results depend on the processing

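The 5 counts of called genes stayed within 1.5 times under the scaling, filter, DESeq2, replicate block and compared-libraries alternatives. A log2 fold change of at least 1 was met by 597 genes under the isoxaben shift, 276 in the mock shift, 287 for their difference, 1083 under long-term isoxaben and 478 for shift minus long-term. With each library left out in turn the counts ran from 2095 to 2482, from 1031 to 1459, from 508 to 779, from 4219 to 5061 and from 1257 to 1863. Replicate numbers showed no pairing of isoxaben shift libraries (correlations of -0.08 to 0.09 between same-numbered ones). For long-term isoxaben, same-numbered libraries had correlations of 0.15, 0.27 and 0.09, against -0.24 to 0.13 for unlike numbers. A replicate block gave counts of 2969, 1685, 761, 5355 and 1774. List members were named mostly for isoxaben calls that held when each library was left out, so the stability of named genes is no support. Of named genes called under isoxaben 3 of 86 lost the call under some alternative (NRT2.6, JAZ1 and PER64), as did 6 of 38 mock calls and 9 of 37 called differences from mock, and none reversed. Of 897 alternatives to the list counts and medians 101 moved beyond the limit, and the cause was not tested. Genes near the floor of 3 counts, such as NRT2.6 and BGLU27 at 6 mM, have fold changes that depth limits.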
